A study of Rattus norvegicus with 30 samples.

Results

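The 10 genes described here encode liver-enriched transcription factors: Hnf4a, Foxa1, Foxa2, Foxa3, Cebpa, Cebpb, Onecut1, Nr5a2, Rxra and Prox1. They were taken by symbol from the platform annotation of a rat expression array, using probe sets that carry a single gene symbol. All 10 were found, among 14217 genes measured. Where a gene had several probe sets, its main probe set was the brightest over all arrays. Hepatocytes owe their identity to a small network of such factors, which bind each other's genes as well as the genes for plasma proteins and metabolic enzymes. FOXA proteins open chromatin at liver genes, HNF4A is a nuclear receptor that keeps the differentiated programme running, and C/EBP proteins act on metabolic and acute-phase genes. Onecut1, Prox1 and Nr5a2 act in liver development and in bile acid and lipid metabolism, and RXRA is the obligate partner of many nuclear receptors.

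The study exposed primary hepatocytes of male Sprague Dawley rats to beta-naphthoflavone (BNF), a ligand of the aryl hydrocarbon receptor (AhR), at 1 or 100 µM, or to vehicle (1% DMSO), and took RNA after 24 or 48 h. Each of the 6 groups had 5 arrays, 30 in all. All groups shared the same culture history: bought, frozen cells were thawed, plated on collagen, covered with Matrigel and dosed on day 3. Each array came from a separate culture well, and no label says which animals a well came from. A p-value here therefore rests on well-to-well spread, which may be technical. In such bulk samples, fewer cells of a type and less RNA per cell cannot be told apart.

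The cells carried the defining markers of hepatocytes. All 7 measured markers, among them Alb, which encodes albumin, ranked at or above percentile 99.1 of gene means. Of 8 measured genes of the AhR battery, 6 were called higher at 100 µM at 24 h and 5 at 48 h, and none lower. Of all 14217 genes, 1523 were called higher at 100 µM at 24 h and 1250 at 48 h. Cyp1a1, a cytochrome P450 that AhR induces, was 5.13-fold higher at 100 µM than in vehicle at 24 h and 5.68-fold higher at 48 h (adjusted p = 2.47e-10 and 5.03e-11). Most markers of other liver cell types were dim. All 9 endothelial and all 9 lymphocyte markers measured lay below the median gene, as did 11 of 12 stellate cell and fibroblast markers, 5 of 10 Kupffer cell markers and 4 of 6 cholangiocyte markers. The summed Kupffer signal ranged from 11398 to 11942 in vehicle at 24 h, from 8859 to 10556 in vehicle at 48 h and from 6728 to 8238 at 100 µM at 48 h. The summed hepatocyte marker signal ranged from 397611 to 460651 in vehicle and from 347311 to 457699 at 100 µM at 24 h, which overlapped. At 48 h it ranged from 353232 to 429532 in vehicle and from 264377 to 332564 at 100 µM, without overlap. Of the 12 stellate cell and fibroblast markers, 2 were called lower at 100 µM at 24 h and 1 at 48 h, with 0 higher, and the list's median log2 difference was -0.12 and 0.22. Lox, the brightest of them, was called lower at both times (2.49-fold and 2.47-fold), while 10 of the 12 had a positive difference at 48 h. Of the 6 cholangiocyte markers, 1 was called lower at each time and 0 higher, with medians of -0.01 and 0.18; at 48 h it was Epcam, the brightest, at 1.28-fold, and 3 of the 6 had a positive difference. Of the 10 Kupffer markers, 1 was called lower at 100 µM at 48 h, as was 1 of the 9 endothelial markers. Of all genes, 10.4% were called lower at 100 µM at 24 h and 8.62% at 48 h. The part of these marker differences in the results below was not tested.

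At 100 µM BNF, several of these factors were lower than in vehicle, and Cebpa was higher at 48 h. At 24 h, Hnf4a, Foxa1, Foxa3, Onecut1 and Prox1 were lower than in vehicle, which is 5 of 10 against 10.4% of all genes called lower, where called means an adjusted p below 0.05 in limma over all 14217 genes. At 48 h, 4 of these 5 were called lower (Hnf4a, Foxa1, Foxa3 and Prox1; 8.62% of all genes), and Cebpa was called higher (8.79% of all genes). At 1 µM, Hnf4a and Foxa3 were lower at 24 h (2 of 10 against 2.4% of all genes), and limma called 0 members at 48 h, when 0.809% of all genes were called and 2 members, Foxa3 and Cebpa, had an unadjusted p below 0.05. Foxa2, Cebpb and Rxra were called in no comparison, and Nr5a2 in none of BNF with vehicle. The comparisons with vehicle share their control arrays within a time, so they are not independent of each other.

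**Figure D1:**
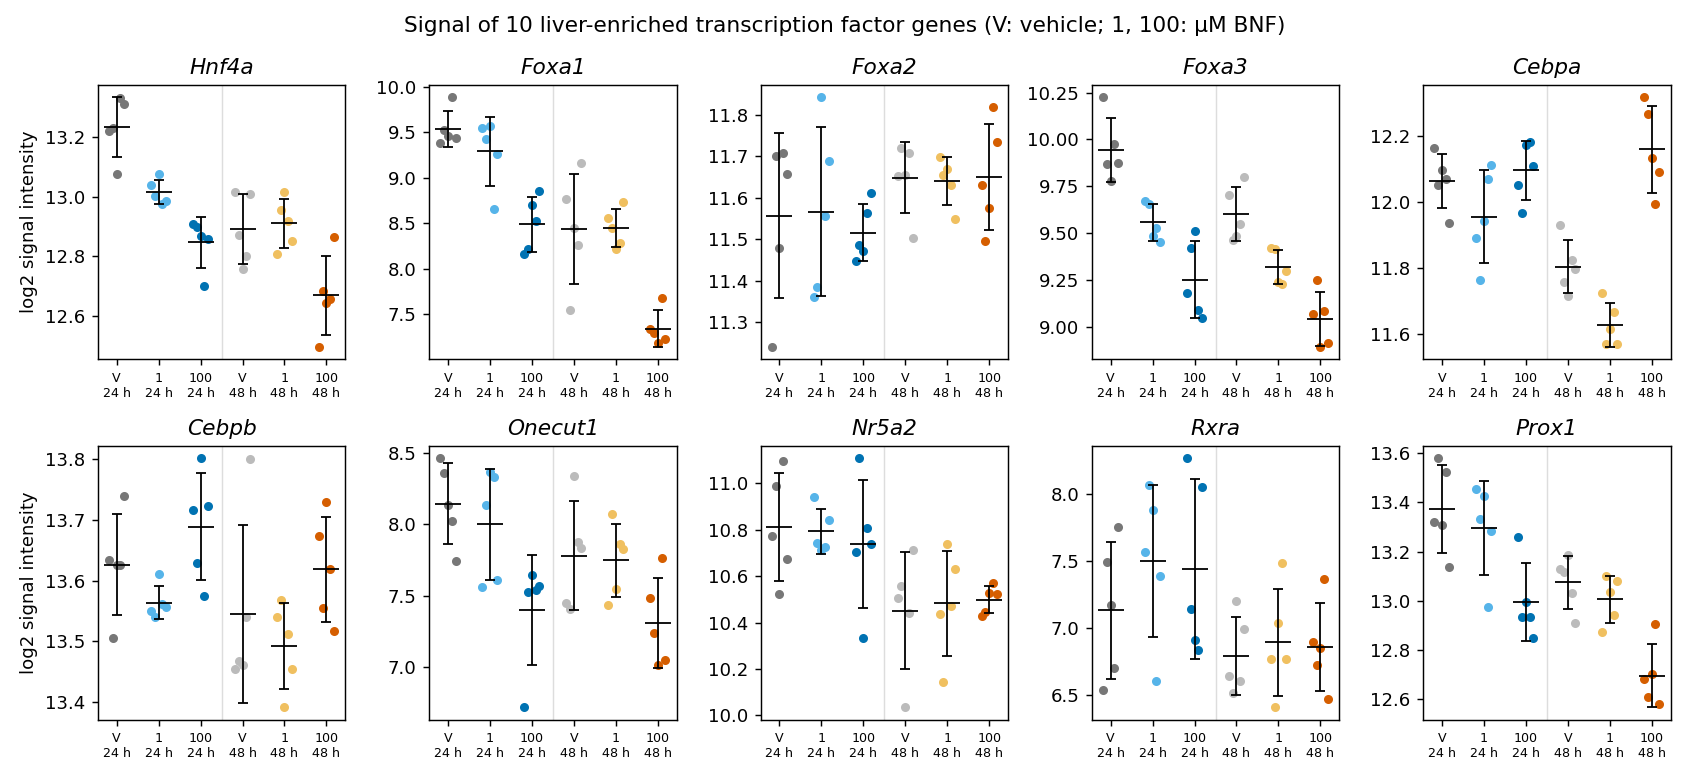
Log2 signal intensity (y axis, its range set per gene) of the main probe set of each of the 10 genes in vehicle (V) and at 1 and 100 µM BNF, at 24 and 48 h. Points are single arrays, the horizontal bar is the mean and the whiskers are 1 SD (n = 5). Foxa1 at 100 µM at 48 h and Cebpa at 100 µM at 48 h sit at opposite ends of their genes' ranges.

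Hnf4a, the nuclear receptor gene at the centre of the network, lies on chromosome 3 of the GRCr8 assembly (chr3:172606220-172667758). RefSeq gives it an upstream and a downstream start, 35616 bases apart. The 250 bases before each start are shown because its probe sets, below, disagree; capitals mark motif matches, 5′ to 3′ on the plus strand.
Hnf4a upstream, chr3:172605970-172606219: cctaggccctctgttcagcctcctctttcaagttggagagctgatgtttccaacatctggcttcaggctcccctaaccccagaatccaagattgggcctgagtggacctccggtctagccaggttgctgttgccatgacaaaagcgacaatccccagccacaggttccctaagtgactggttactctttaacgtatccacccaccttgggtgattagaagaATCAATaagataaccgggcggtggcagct
Hnf4a downstream, chr3:172641586-172641835: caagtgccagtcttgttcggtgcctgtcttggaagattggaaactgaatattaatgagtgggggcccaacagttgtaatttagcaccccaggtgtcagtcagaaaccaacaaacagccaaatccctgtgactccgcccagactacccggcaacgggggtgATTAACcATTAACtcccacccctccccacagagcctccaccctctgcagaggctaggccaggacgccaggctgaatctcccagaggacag
The upstream window held the ONECUT core ATCAAT 23 bases before the start, and the downstream window held a pair of HNF1 half-sites (GTTAAT, read on the other strand). The files do not say which start any probe set reports.

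The main Hnf4a probe set was bright, with a mean signal of 7788. At 24 h the arrays read 9548, 9605, 8631, 10297 and 10156 in vehicle and 8424, 8201, 8625, 8045 and 8117 at 1 µM. At 100 µM the values were 7688, 7639, 7476, 6646 and 7423. All 5 arrays at each dose lay below all 5 vehicle arrays, and those at 100 µM lay below those at 1 µM. Hnf4a fell by 0.22 on the log2 scale at 1 µM (SE 0.06, adjusted p = 0.0339) and by 0.39 at 100 µM (SE 0.06, adjusted p = 1.22e-05), the latter a 1.31-fold lower signal. The 1 µM call was lost when vehicle replicate 1, 2, 4 or 5 or treated replicate 2, 4 or 5 was left out (adjusted p from 0.0551 to 0.0937). The direct contrast of 100 with 1 µM at 24 h was -0.17 and was not called (adjusted p = 0.0893).

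At 48 h the vehicle arrays read 8272, 7487, 6926, 7137 and 8234, and the 100 µM arrays 5775, 6571, 6387, 6456 and 7456. The ranges overlapped, with the highest treated well above 2 vehicle wells. Hnf4a was 1.17-fold lower at 100 µM (log2 -0.22, SE 0.06, adjusted p = 0.00829). At 1 µM and 48 h the values were 7164, 7946, 8279.9, 7746 and 7393, within the vehicle range apart from 1 array just above it, and the difference was 0.02 with a 95% interval from -0.10 to 0.14. These results belong to 1 of 3 probe sets. The other two, with mean signals of 969 and 673, gave log2 differences of 0.016 and -0.18 at 100 µM at 24 h (adjusted p = 0.945 and 0.471) and -0.08 and -0.25 at 48 h, none of them called. Centring each array on its median also ended the 1 µM call (adjusted p = 0.066) and the 48 h call (adjusted p = 0.173).

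Of the 3 FOXA genes, which encode pioneer factors of the forkhead family, Foxa1 and Foxa3 were called lower at 100 µM at both times, and Foxa2 at neither. The difference between the genes was tested within arrays, after the values had been seen, and did not pass for Foxa1 against Foxa2 or Foxa3 against Foxa2 at either time (exact permutation test, adjusted p = 0.0529 in all 4); under quantile normalization all 4 passed (adjusted p from 0.0397 to 0.0454). The RefSeq windows of Foxa2 and Foxa3, both on the minus strand, are printed for comparison.
Foxa2, chr3:155927509-155927758: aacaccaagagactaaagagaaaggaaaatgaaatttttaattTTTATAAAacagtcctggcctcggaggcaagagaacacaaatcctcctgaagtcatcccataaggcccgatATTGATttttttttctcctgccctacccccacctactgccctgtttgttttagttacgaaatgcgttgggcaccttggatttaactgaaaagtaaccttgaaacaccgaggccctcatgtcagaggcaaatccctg
Foxa3, chr1:87799486-87799735: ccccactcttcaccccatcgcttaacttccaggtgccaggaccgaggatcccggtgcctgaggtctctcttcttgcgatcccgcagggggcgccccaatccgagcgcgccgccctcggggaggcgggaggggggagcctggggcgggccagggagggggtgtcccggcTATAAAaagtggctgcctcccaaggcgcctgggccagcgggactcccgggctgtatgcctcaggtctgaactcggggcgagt
Foxa2 held the ONECUT core, on the other strand, 130 bases before its start, and overlapping TATAAA matches on both strands farther upstream. Foxa3 held TATAAA 76 bases before its start, which lies inside the annotated gene (chr1:87790111-87800259). The GC content was 42.8% in the Foxa2 window and 69.6% in the Foxa3 window.

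Foxa1 (chr6:80838380-80871195) had the widest span of the 10 genes, 4.57-fold between its highest and lowest group means. Its probe set was dim, with a mean signal of 386, at percentile 34.5 of gene means. At 24 h its signal was 667, 738, 704, 945 and 692 in vehicle and 286, 297, 416, 368 and 463 at 100 µM. Every treated array lay below every vehicle array. Foxa1 was 2.07-fold lower (log2 -1.05, SE 0.22, adjusted p = 0.000605). At 48 h the vehicle wells spread widely, at 436, 188, 349, 307 and 573, while the 100 µM wells read 162, 157, 146, 206 and 149.6. The lowest vehicle well lay inside the treated range and the other 4 lay above it. Foxa1 was 2.13-fold lower (log2 -1.09, SE 0.22, adjusted p = 0.000467). At 1 µM the values were 748, 687, 759, 403 and 613 at 24 h and 377, 349, 299, 311 and 428 at 48 h. Neither was called, with 95% intervals of the log2 difference from -0.70 to 0.20 and from -0.44 to 0.46.

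Foxa3, with a mean signal of 701 at percentile 45.7 of gene means, was called lower at both doses at 24 h. Vehicle arrays read 1196, 935, 877, 1006 and 937, the 1 µM arrays 815, 807, 715, 739 and 699.7 and the 100 µM arrays 581, 686, 729, 545 and 529.7. Both treated groups lay wholly below vehicle, and they overlapped each other. Foxa3 was 1.31-fold lower at 1 µM (log2 -0.39, SE 0.11, adjusted p = 0.0389) and 1.62-fold lower at 100 µM (log2 -0.69, SE 0.11, adjusted p = 1.44e-05). Without vehicle replicate 1, 4 or 5 or treated replicate 3, 4 or 5 the 1 µM difference was not called (adjusted p from 0.0550 to 0.128). The direct contrast of the doses was -0.31 and not called (adjusted p = 0.0882). At 48 h vehicle read 834, 707, 717, 749 and 891 and 100 µM read 536, 609.7, 476, 543 and 483, again with no overlap. The signal was 1.47-fold lower (log2 -0.56, SE 0.11, adjusted p = 0.000314). At 1 µM and 48 h the values were 686, 682, 605, 601 and 629, all below vehicle, yet the difference of -0.28 was not called (adjusted p = 0.287).

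Foxa2 (chr3:155923305-155927508) read 2420.3, 3328, 2855, 3345 and 3229 in vehicle and 2792, 2868, 2838, 3024 and 3128 at 100 µM at 24 h. At 48 h it read 3219.7, 3375, 3227, 3347 and 2905 and 3174, 2888, 3049.7, 3611 and 3408. The groups overlapped at both times. The log2 differences were -0.04 and 0.00, with 95% intervals from -0.21 to 0.13 and from -0.17 to 0.17.

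Prox1, which encodes a homeobox factor of hepatocyte and lymphatic development, read 10233, 12242, 10137, 11775 and 9018 in vehicle and 9814, 7832, 8160.2, 7827 and 7376 at 100 µM at 24 h. The brightest treated well lay above the dimmest vehicle well, and the other 4 treated wells lay below all vehicle wells. Prox1 (chr13:104196615-104251007) was 1.30-fold lower (log2 -0.38, SE 0.09, adjusted p = 0.00147). At 48 h vehicle read 8959.9, 8882, 9323, 8379 and 7695 and 100 µM read 6569, 6251, 6669, 7682 and 6121, with no overlap. The fold was again 1.30 (log2 -0.38, SE 0.09, adjusted p = 0.00182). At 1 µM the log2 differences were -0.08 and -0.07, and neither was called. A second Prox1 probe set, with a mean signal of 348, gave 0.50 at 24 h and -0.74 at 48 h, and neither was called (adjusted p = 0.488 and 0.284). In the mean of both sets, the 100 µM differences were 0.059 at 24 h and -0.56 at 48 h. Neither was called (adjusted p = 0.902 and 0.0703).

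Onecut1 (chr8:84480066-84507848), whose product is also called HNF6, was dim, with a mean signal of 212. At 24 h it read 354, 329, 281, 259.7 and 214 in vehicle and 105, 184, 200.5, 186 and 190.1 at 100 µM. The groups did not overlap, and 1 treated well stood well below the other 4. Onecut1 was 1.68-fold lower (log2 -0.75, SE 0.24, adjusted p = 0.0226), a call that was lost without that well (adjusted p = 0.0916), without vehicle replicate 1 or 2 (0.065 and 0.0569), and in a fit of these groups alone (0.0663). A second, dimmer Onecut1 probe set, with a mean signal of 101, gave -0.59 and was not called (adjusted p = 0.558), nor was the mean of both sets (-0.67, adjusted p = 0.196). At 48 h the values were 175, 169, 325, 235 and 228 in vehicle and 179, 151, 129, 217 and 132 at 100 µM, which overlapped. The difference of -0.47 was not called (adjusted p = 0.195, 95% interval from -0.96 to 0.01).

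**Figure D2:**
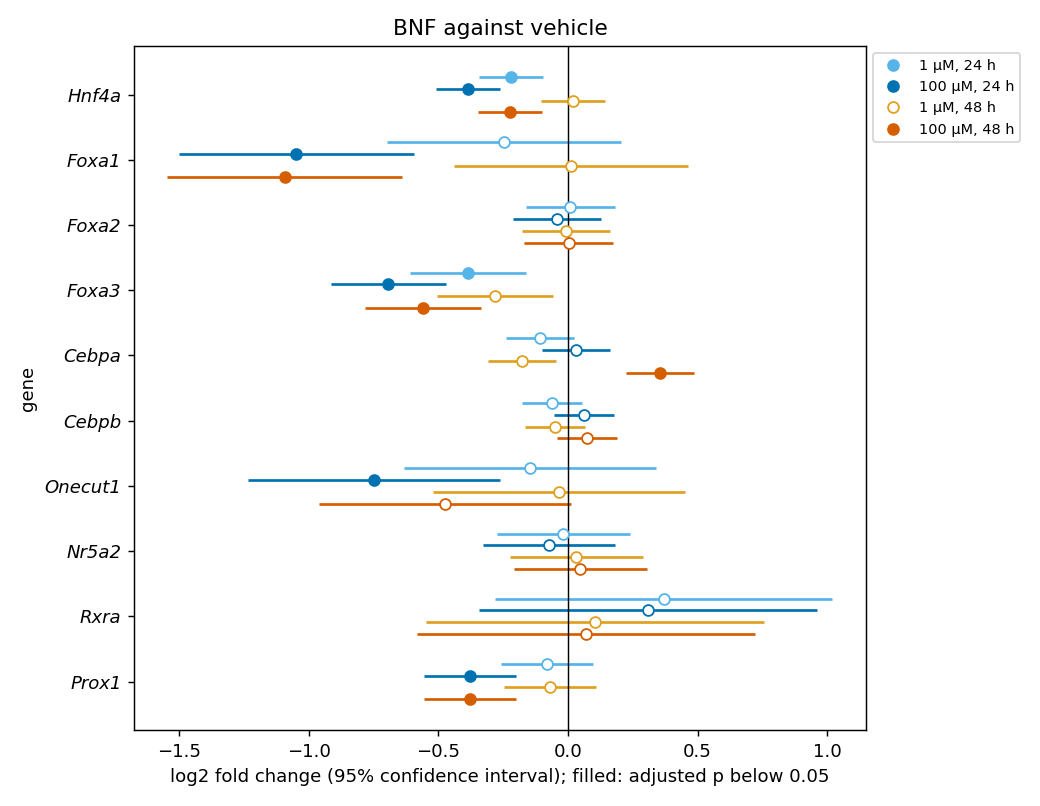
Log2 fold change of BNF against vehicle (x axis) for each gene (y axis), by dose and time, with 95% confidence intervals from limma (n = 5 arrays per group). Filled points passed an adjusted p of 0.05. Foxa1 lies near -1.05 and -1.09 at 100 µM, Foxa2 near 0, and Cebpa at 0.36 at 100 µM and 48 h.

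The C/EBP genes encode leucine zipper factors; C/EBPα is tied to metabolic genes and to arrest of growth, and C/EBPβ to acute-phase and regenerative responses. Their RefSeq windows, both on the plus strand, are shown side by side.
Cebpa, chr1:96896334-96896583: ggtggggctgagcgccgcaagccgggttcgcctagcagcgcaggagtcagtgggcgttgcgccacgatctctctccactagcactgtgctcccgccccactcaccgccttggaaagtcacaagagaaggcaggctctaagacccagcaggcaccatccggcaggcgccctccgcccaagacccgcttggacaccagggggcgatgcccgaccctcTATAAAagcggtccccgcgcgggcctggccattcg
Cebpb, chr3:176816755-176817004: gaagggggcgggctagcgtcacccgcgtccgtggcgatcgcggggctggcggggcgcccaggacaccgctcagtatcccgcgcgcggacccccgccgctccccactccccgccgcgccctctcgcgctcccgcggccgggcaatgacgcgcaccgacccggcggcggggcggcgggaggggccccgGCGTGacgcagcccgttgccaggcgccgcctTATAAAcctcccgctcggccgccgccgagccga
TATAAA ended 29 bases before the start of Cebpa and 27 bases before that of Cebpb. Only the Cebpb window, among the 8 windows of 7 members found in the table, held GCGTG, the core bound by AhR with its partner ARNT.

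Cebpa was the only member called higher than vehicle. Its geometric mean signal went from 4283 at 24 h to 3578 at 48 h in vehicle, and from 4380 to 4579 at 100 µM. At 48 h its signal was 3902, 3461, 3364, 3631 and 3557 in vehicle and 5105, 4928, 4494, 4081 and 4364 at 100 µM. All 5 treated arrays lay above all 5 vehicle arrays. Cebpa was 1.28-fold higher (log2 0.36, SE 0.06, adjusted p = 0.000113). The 1 µM arrays read 3383, 3039.6, 3136, 3255 and 3040.3, below or at the low end of vehicle, with a difference of -0.18 that was not called (adjusted p = 0.239). Against 1 µM, the 100 µM signal was 1.45-fold higher (log2 0.53, SE 0.06, adjusted p = 3.85e-07), without overlap.

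At 24 h Cebpa read 4588, 4251, 4381, 4297 and 3924 in vehicle and 4243, 4006, 4616, 4649.5 and 4419.6 at 100 µM, with overlapping ranges and a log2 difference of 0.03 (95% interval from -0.10 to 0.16). The difference between the 48 h and 24 h effects was 0.32 and did not pass (adjusted p = 0.0914). It passed without replicate 4 of the 100 µM group at 48 h (adjusted p = 0.0435). Cebpa had 5 probe sets, and all 5 had a positive difference at 100 µM and 48 h. The main set and 2 others were called, the latter at 0.30 and 0.36 (adjusted p = 0.011 and 0.0115), and the remaining sets gave 0.18 and 0.43 (adjusted p = 0.283 and 0.239).

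Cebpb (chr3:176817005-176818436) was the brightest main probe set, with a mean signal of 12324. At 48 h it read 11218, 11323, 11277, 11913 and 14262 in vehicle and 13065, 12028, 13586, 12582 and 11722 at 100 µM. The ranges overlapped, and 1 vehicle well stood above all others of both groups. The log2 differences at 100 µM were 0.06 at 24 h and 0.07 at 48 h, with 95% intervals from -0.05 to 0.18 and from -0.04 to 0.19.

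Nr5a2, also called LRH-1, encodes a receptor that acts on bile acid synthesis genes, and Rxra the partner of PPARα, FXR, PXR, CAR and other receptors. Nr5a2 (chr13:50865253-50985107) read 1752, 2034, 1470.1, 2192 and 1632 in vehicle and 1668, 2209, 1289, 1793 and 1709 at 100 µM at 24 h, and its groups overlapped at every dose and time. The 4 differences from vehicle ran from -0.07 to 0.05, none called. Rxra (chr3:31387892-31474415) was the dimmest member, with a mean signal of 137, at percentile 18.4 of gene means. It read 92.9, 179.8, 144, 104 and 215 in vehicle and 307, 141, 120.1, 114 and 265 at 100 µM at 24 h. The groups overlapped, and the 95% interval of the log2 difference of 0.31 ran from -0.34 to 0.96. At this signal, changes of that size in Rxra were not detectable.

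**Figure D3:**
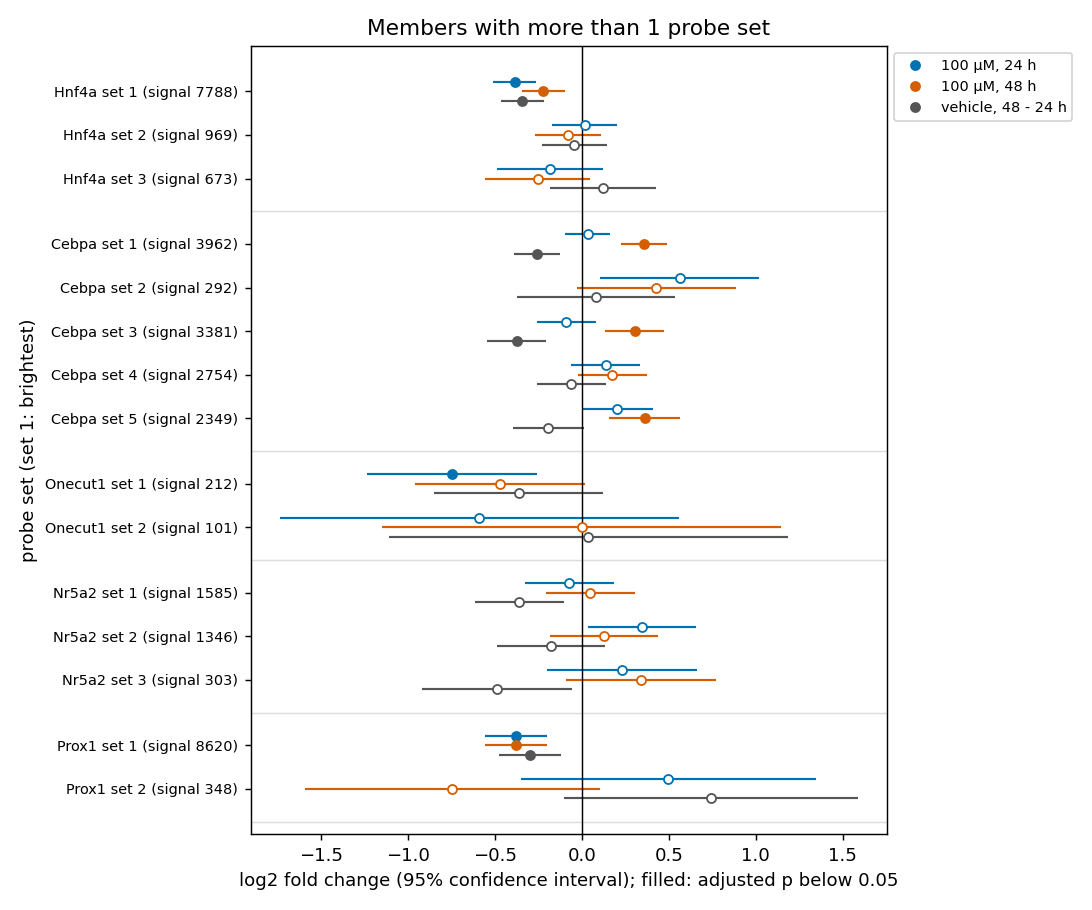
Log2 fold change (x axis) with 95% confidence intervals for each probe set (y axis) of the 5 members with more than 1, with its mean signal. Filled points passed an adjusted p of 0.05 over all probe sets. The brightest Hnf4a and Prox1 sets were called and their dimmer sets were not, while all 5 Cebpa sets lie above 0 at 100 µM and 48 h.

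Several of these genes were also lower at 48 than at 24 h in vehicle. Time in culture and time in 1% DMSO cannot be told apart here. Both vehicle groups are also the controls of the BNF comparisons, so these results are not independent of those. Between vehicle wells at 48 and 24 h, Hnf4a, Foxa1, Foxa3, Cebpa, Nr5a2 and Prox1 fell, which is 6 of 10 against 8.6% of all genes called lower, and none rose, against 8.64% of all genes called higher. The median log2 difference of the 10 genes was -0.34, and that of all genes 0.00. Foxa1 was 2.14-fold lower (log2 -1.10, SE 0.22, adjusted p = 0.000486) and Hnf4a 1.27-fold lower (log2 -0.34, SE 0.06, adjusted p = 9.11e-05), each without overlap between the groups. Cebpa fell by 0.26 on the log2 scale (SE 0.06, adjusted p = 0.00418), also without overlap. Foxa3 fell by 0.34, Nr5a2 by 0.36 and Prox1 by 0.30 (adjusted p = 0.0271, 0.0444 and 0.0148), with overlapping wells. The Foxa3 call was lost without vehicle replicate 1 or 4 at 24 h or 2, 3 or 4 at 48 h (adjusted p from 0.0529 to 0.105), and the Prox1 call without vehicle replicate 2 or 4 at 24 h (0.0599 and 0.0510). Nr5a2 read 1455, 1509, 1049, 1392 and 1679 in vehicle at 48 h, against the 24 h values above. Its call was lost without vehicle replicate 1, 2 or 4 at 24 h or 1, 2, 3 or 4 at 48 h (adjusted p from 0.0531 to 0.173). Median centring also ended the Nr5a2 call (adjusted p = 0.0532). In a fit of these groups alone, the Nr5a2 and Foxa3 calls were lost (adjusted p = 0.0959 and 0.0651). With the mean of all probe sets of a gene the count was 3: Hnf4a (-0.09, adjusted p = 0.471) and Cebpa (-0.16, adjusted p = 0.103) were not called, and Prox1 turned to 0.22. The other two Hnf4a sets gave -0.04 and 0.12. Foxa2 was 0.09 higher at 48 h and not called (adjusted p = 0.546). Of the Kupffer markers, 4 of 10 were called lower over the same interval, and Lox was 4.06-fold lower; their part was not tested.

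**Figure D4:**
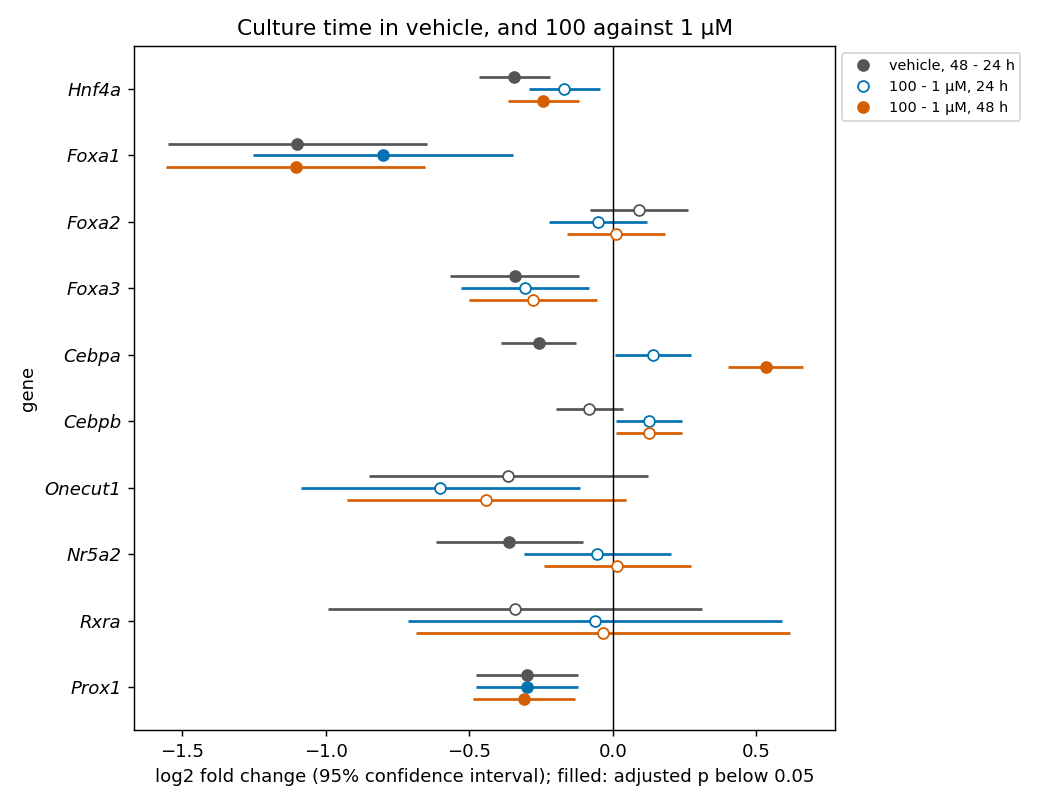
Log2 fold change (x axis) per gene (y axis) between vehicle at 48 and 24 h, and between 100 and 1 µM BNF at each time, with 95% confidence intervals (n = 5 arrays per group). Filled points passed an adjusted p of 0.05. Foxa1 was called in all 3 contrasts, and Cebpa lies left of 0 over time and right of 0 with dose at 48 h.

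The direct contrast of the doses separated some of these genes. At 24 h, Foxa1 (log2 -0.80, adjusted p = 0.0195) and Prox1 (log2 -0.30, adjusted p = 0.0277) were lower at 100 than at 1 µM, 2 of 10 against 4.57% of all genes. At 48 h, Foxa1 was 2.15-fold lower (log2 -1.10, adjusted p = 0.000591), Hnf4a 1.18-fold lower and Prox1 1.24-fold lower, 3 of 10 against 7.39% of all genes, and Cebpa alone was higher (6.57% of all genes). With each array centred on its median, 1 member was lower and 2 were higher: Hnf4a and Prox1 were not called (adjusted p = 0.368 and 0.167), and Cebpb was called higher (0.24, adjusted p = 0.0412). A second Nr5a2 probe set, with a mean signal of 1346, was called higher (0.51, adjusted p = 0.0247 over all probe sets), against 0.015 in the main set. At 24 h, Foxa1 was not called without 1 µM replicate 1, 2 or 3 or 100 µM replicate 1 or 2 (adjusted p from 0.0529 to 0.0669), and Prox1 was not called without 1 µM replicate 1, 2 or 3 or 100 µM replicate 2, 4 or 5 (from 0.0592 to 0.100). Whether the effect of BNF differed between 24 and 48 h was tested by an interaction term. In limma it passed for 0 of 10 members at 1 µM and 0 of 10 at 100 µM, where 0.0914% and 0.788% of all genes passed. An unadjusted p below 0.05 was seen for 1 member at each dose, Hnf4a at 1 µM and Cebpa at 100 µM.

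The order of the 6 groups differed between the genes. Hnf4a, Foxa1, Foxa3, Onecut1 and Prox1 were highest in vehicle at 24 h and lowest at 100 µM at 48 h. For Hnf4a, neighbouring group means differed by more than the pooled SD in 3 of 5 steps, and the means of vehicle at 48 h, 1 µM at 48 h and 100 µM at 24 h did not. For Foxa1 the steps beyond the pooled SD were 2 of 5, from 1 to 100 µM at 24 h and from vehicle to 100 µM at 48 h. Foxa3 had 3, Prox1 had 2 and Onecut1 had 1 such step. Cebpa ran otherwise, with its highest mean at 100 µM at 48 h, its lowest at 1 µM at 48 h and 3 such steps. No neighbouring groups of Foxa2, Cebpb or Rxra were that far apart.

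Among 22 other hepatocyte transcription factors measured, 7 were called lower and 0 higher at 100 µM at 24 h, and 6 lower and 0 higher at 48 h, against 10.4% and 8.62% of all genes called lower. Creb3l3, a membrane-bound factor of fasting metabolism, was 1.71-fold lower at 24 h and 1.28-fold lower at 48 h (adjusted p = 1.51e-12 and 4.55e-06). Cebpd, another C/EBP gene with an acute-phase role, was 2.15-fold lower at 48 h (adjusted p = 1.21e-10). Klf15, a factor of amino acid and glucose metabolism, was 1.53-fold lower at 24 h, and Hhex, a homeobox factor of early liver, 1.19-fold lower. The list's median log2 difference was -0.24 at 24 h and -0.23 at 48 h, beside -0.23 and -0.11 for the 10 members and 0.04 and 0.02 for all genes.

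Of 14 receptors that pair with RXR, or are RXR paralogs, 5 were called lower at 100 µM at 24 h and 6 at 48 h, against 10.4% and 8.62% of all genes, and 0 were called higher. Nr1i3, which encodes the xenobiotic receptor CAR, was 2.28-fold lower at 48 h (adjusted p = 3.79e-05). Nr1i2, for the xenobiotic receptor PXR, was 1.36-fold lower at 24 h and 1.55-fold lower at 48 h, and Rarb, for a retinoic acid receptor, 1.76-fold and 1.67-fold lower. Nr1h4, for the bile acid receptor FXR, was 1.52-fold lower at 24 h (adjusted p = 1.27e-05). Rxra itself was not called.

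Genes known as targets of these factors were called lower more often than higher. Of 18 measured HNF4A targets, 12 were called lower at 100 µM at 24 h and 13 at 48 h, with 0 higher. Of all genes, 10.4% and 8.62% were called lower. With genes below the median mean signal left out of the fit, 1336 of 7109 were called lower at 24 h and 1100 at 48 h. The target lists were not recounted in that fit. The HNF4A list's median log2 difference was -0.58 and -0.64. Mttp, which loads lipid onto apolipoprotein B, was 2.24-fold lower at 24 h and 2.10-fold lower at 48 h. Cyp8b1, a sterol hydroxylase of bile acid synthesis, was 4.10-fold lower at 24 h, and Pklr, for liver pyruvate kinase, 2.52-fold lower. At 1 µM, 7 of these 18 were called lower at 24 h (2.4% of all genes) and 1, F9, at 48 h (0.809% of all genes in either direction). In vehicle, 11 of the 18 were lower at 48 than at 24 h (8.6% of all genes), among them Apoa2 (2.17-fold) and Slc10a1 (4.68-fold).

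C/EBP targets were also called lower. The shares of all genes called lower at 100 µM, 10.4% at 24 h and 8.62% at 48 h, apply to the counts below. So do the counts without dim genes given above. Of 16 measured, 10 were called lower at 100 µM at 24 h and 12 at 48 h, with 0 higher. Crp, for C-reactive protein, was 5.33-fold lower at 48 h, Cps1, for the first enzyme of the urea cycle, 2.11-fold lower and Gys2, for liver glycogen synthase, 2.16-fold lower. Of 11 FOXA targets measured, a list that includes the members Foxa1 and Hnf4a, 7 were lower at 24 h and 8 at 48 h. Of 11 NR5A2 targets, 4 were lower at 24 h, and 3 lower and 1 higher at 48 h; the last was Abcc3, an export pump (1.54-fold). The lists overlap: Tat, Pck1 and Otc each stand in more than 1, and 4 of 7 defining hepatocyte markers were themselves called lower at 100 µM and 48 h.

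For the 6 members called in a contrast of BNF with vehicle, the genes nearest in profile over the 6 group means were found. Candidates had a mean signal above that of the median gene. Nearness was the root mean square log2 difference, each gene centred on its own mean. For Hnf4a the nearest genes were Wdr13, Gna12 and Dennd2b, at 0.03 each. For Foxa1 they were Smtnl2 at 0.14, and Igf1 and Arg1 at 0.15 each. For Foxa3 they were Gucd1, Eci2 and St6gal1, and for Prox1 Myorg, Sdc4 and Krt8. Cebpa was nearest to Cldn12, Trappc5 and Tkt, and Onecut1 to Irgm2, Gpr146 and Nek6.

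The motif search behind the capitals covered the 250 bases before each start on both strands, in all 33469 RefSeq windows. GCGTG was found in 25.9% of them, the FOXA motif TGTTTAC in 3.21%, the C/EBP motif TTGCNNAA in 9.22%, ATCAAT in 7.1%, the HNF4A motif CAAAGTCCA in 0.338%, the NR5A2 motif CAAGGTCA in 1.33% and the full HNF1 site, a pair of inverted half-sites, in 0.00299%. GTTAAT, which the full site contains, was found in 6.45% and TATAAA in 12.9%; these motifs were added after the members' windows had been seen. In the members' 8 windows, the FOXA, HNF4A, NR5A2 and full HNF1 motifs had no match, the C/EBP motif matched in Rxra only, and the Nr5a2 window held none of the 9. A match is a description of letters in a window, and none was tested against the expression values.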

How the data were processed

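RNA from 30 culture wells was measured on 30 Affymetrix rat arrays. The authors deposited 1 linear intensity value for each probe set. The submitters' processing notes name MAS5; the sources used here give neither its version nor any filter. The deposited columns share a 2% trimmed mean of 1500.536 to 1500.597, so a shift common to all genes cannot be seen. Of 31099 probe sets, 20826 carried 1 gene symbol, 436 several and 9780 none. Genes took their brightest single-symbol probe set, giving 14217 genes.

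Log2 intensities were fitted with limma 3.58.1 (R 4.3.3) as 6 group means over all arrays, with 24 residual degrees of freedom and an intensity trend, and p-values were adjusted by Benjamini and Hochberg over all genes. The fit was tested on simulated data. The 10 genes, the other lists and the tests were chosen with earlier results of these data known. From each other list and contrast, at most 4 called genes were named, those with the smallest adjusted p. Likeness was the root mean square difference of centred group means among genes brighter than the median. Within-array differences of related genes were added after the values were seen. Promoter windows are RefSeq's, on GRCr8. Alternatives were 2 normalizations, a filter on dim genes, the groups of a contrast alone, all probe sets of a gene, a constant of 50, robust variances and leaving out each array. Array number limits the precision.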

Additional observations from a re-analysis of the deposited data

Results flagged for a closer look

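In 60 sets of 5 arrays (10 genes in 6 groups), Dixon's test marked 3 single arrays as far from the other 4, and chance marks about 1 in 20 such sets. Hnf4a in replicate 4 at 100 µM and 24 h was the lowest of its group, with a gap of 0.759 of the range. Onecut1 in replicate 1 at 100 µM and 24 h was the lowest, at 0.866. Cebpb in replicate 5 of vehicle at 48 h was the highest, at 0.750; without it the difference of Cebpb between vehicle at 48 and 24 h was called (log2 -0.15, adjusted p = 0.0376).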

How the results depend on the processing

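Over 1784 values of the 10 genes under other settings, 1689 kept their side of the threshold, 81 lost a call, 6 gained one and 8 reversed. Those 1689 include 147 whose sign changed where neither value was called.

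The count of members called at 1 µM and 24 h was 2. It was 1 under median centring, the filter on dim genes, the groups alone and the mean of all probe sets. Of all genes, 396, 720 of 7109, 441 and 489 were called there, in that order, against 612 in the main fit. At 100 µM the count was 5 at 24 h, and 2 under the filter and the mean of probe sets. At 48 h it was 5, and 3 under both. Of all genes, in either direction, the filter called 2758 of 7109 at 24 h and 2416 at 48 h. The mean of probe sets called 2631 and 2120 of 14217, and the main fit 3000 and 2475. The filter left 6 members to test and removed Foxa1, Foxa3, Onecut1 and Rxra, whose mean signals lay below that of the median gene. For 100 against 1 µM, the 24 h count of 2 became 1 under median centring, the filter and the mean of probe sets. All genes called there numbered 612, 1191 of 7109 and 902, against 1097 in the main fit. The 48 h count of 4 became 2 under that mean, where all genes called went from 1984 to 1630. The vehicle time count of 6 became 3 under the mean, 5 under median centring, and 4 under the filter and with the groups alone. All genes called there numbered 2116, 1637, 2362 of 7109 and 1967, in that order, against 2450 in the main fit. Leaving out 1 array gave 0 to 2 calls at 1 µM and 24 h, 4 to 5 at 100 µM and 24 h, 0 to 3 for the doses at 24 h, 3 to 7 for vehicle time and 0 to 1 for the 100 µM effect between times. The 1 µM call of Hnf4a was lost without vehicle replicate 1, 2, 4 or 5 or treated replicate 2, 4 or 5 (adjusted p up to 0.0937). That of Foxa3 was lost without vehicle replicate 1, 4 or 5 or treated replicate 3, 4 or 5 (up to 0.128).

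Median centring also ended the calls of Hnf4a and Prox1 for 100 against 1 µM at 48 h (adjusted p = 0.368 and 0.167).

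Reversed values, none called, came from other probe sets. In the mean of all sets, Prox1 gave 0.059 at 100 µM and 24 h and 0.22 over vehicle time. Its second set gave 0.50 and 0.74. Hnf4a gave 0.13 at 1 µM and 0.016 at 100 µM at 24 h in 1 set and 0.12 over vehicle time in another, and a Cebpa set gave 0.080 over vehicle time. The cause was not tested.

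Median centring moved the median of all genes by 0.11 for 100 against 1 µM at 48 h, where it also called Cebpb higher (0.24, adjusted p = 0.0412), and by under 0.1 elsewhere. The share of calls that were higher went from 47.1% to 76.0% there, from 50.8% to 30.6% at 100 µM and 24 h, from 44.3% to 12.9% at 1 µM and 24 h, from 35.7% to 12.1% at 1 µM and 48 h, and from 48.2% to 61.7% for the 100 µM effect between times. All genes called fell in number from 612 to 396 at 1 µM and 24 h, from 115 to 66 at 48 h (30 with the groups alone) and from 1097 to 612 for the doses at 24 h. Those for the change of effect between times fell from 13 to 0 at 1 µM and from 112 to 47 at 100 µM; the former was 23 under quantile normalization and 5 with the groups alone, and the latter 174 under the filter. With 1 array left out, 406 to 689 genes were called at 1 µM and 24 h, 46 to 153 at 48 h and 2 to 22 for the 1 µM change between times. No paired analysis was run, as the replicate numbers only follow the order of the samples. That order passes through the 6 groups in turn, and a fit with it as a block was not run.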

Other observations

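Differences between related genes within an array were compared after the values above had been seen, as Foxa1 minus Foxa2, Foxa3 minus Foxa2, Foxa1 minus Foxa3 and Cebpa minus Cebpb over 5 contrasts. None of the 20 exact two-sided permutation tests passed adjustment over the 20; the smallest adjusted p was 0.0529, and the smallest p that 5 against 5 arrays allow is 0.00794. Foxa1 shifted relative to Foxa2 by -1.01 on the log2 scale at 100 µM and 24 h, without overlap, and by -1.10 at 48 h (exact p = 0.00794 and 0.0159). Foxa3 relative to Foxa2 gave -0.65 and -0.56, and Cebpa relative to Cebpb gave 0.28 at 48 h (exact p = 0.0238, adjusted 0.0595). Other settings were quantile normalization, a constant of 50, the mean of all probe sets and leaving out arrays. Under them, 25 of 260 values passed adjustment and the other 235 did not. Each FOXA gene had 1 probe set, so the mean of all sets left the FOXA differences unchanged. The FOXA passes under that mean came only through the adjustment over the 20 tests.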
